A study of Mus musculus with 2 samples.

Results

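The 40 genes described here encode nucleolar and other ribosome assembly proteins. They act in transcribing ribosomal DNA, in modifying and cleaving the ribosomal RNA precursor and in assembling the ribosomal subunits. The 40 genes were taken by symbol from a list of nucleolar and ribosome assembly genes, and all 40 were found among the 43346 gene entries. No threshold on their values was used, but the list was chosen with earlier results of these data known. They were measured in G1E, an immortalized mouse line labelled as a Gata1- erythroid progenitor, by paired-end sequencing of poly(A) RNA. The study holds 1 group of 2 libraries, called replicate 1 and replicate 2 after their labels, with no treatment, time course or second genotype. Both libraries carry the Gata1 mutation, since the whole line does, and no Gata1-positive cells are included. Both labels cite the same biosample record, so the SD between libraries may be technical and does not measure how G1E differs from other cells. With 1 group there was no condition to test, and values are given as levels with their spread over the 2 libraries (n = 2).

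Ribosome assembly starts in the nucleolus, where RNA polymerase I transcribes a long precursor that holds the small subunit RNA and most of the large subunit RNA. Small nucleolar ribonucleoproteins (snoRNPs) of the box C/D kind guide methylation of the precursor and those of the box H/ACA kind guide pseudouridylation. The small subunit processome folds and cuts the small subunit part, and separate sets of factors mature the large subunit and carry both subunits to the cytoplasm. Erythroid progenitors make ribosomes at a high rate before terminal differentiation, and inherited defects of several assembly proteins cause anaemia or marrow failure in humans.

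Replicate 1 held 61982634 expected counts, which are estimated numbers of read pairs, and replicate 2 held 80658648. Erythroid regulators were present in both libraries, with Gata2 at 1013 ± 102 TPM (a level corrected for transcript length and for sequencing depth), Tal1 at 246 ± 10.9, Klf1 at 221 ± 38.6 and Kit at 96.7 ± 18.9 TPM (SD, n = 2). Gata1 itself read 48.0 and 46.6 TPM, and which part of the mutated gene these reads cover cannot be told from a level per gene. The T cell marker Cd3e and the endothelial marker Pecam1 had 0 counts in both libraries, and the macrophage marker Itgam averaged 0.0600 TPM. The granulocyte gene Mpo, at 1.52 and 1.76 TPM, and the platelet gene Pf4, at 2.03 and 2.42 TPM, were low but above 1 TPM. Of the markers of later red cells, Alas2, at 0.290 and 0.580 TPM, and Slc4a1, at 2.30 and 2.90 TPM, were also low. The alpha-globin gene Hba-a1 was high, at 3881 and 4446 TPM. The transferrin receptor Tfrc differed between the libraries, at 3.42 TPM in replicate 1 and 13.8 TPM in replicate 2. Its expected counts, 821 and 1825, were less far apart than its TPM.

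A pair of sequence motifs stood in the start regions of these genes at a higher share than in those of all detected genes. The windows, from RefSeq on GRCm38.p6, run from 250 bases before to 50 after the annotated start, and 31 of the 40 genes had one, among 17492 protein-coding genes with a window and 6875 of them detected in G1E. The E-box letters CACGTG, the same on both strands, were found in 8 of 31 genes (25.8%), against 11.3% of detected genes and 7.90% of all genes. Of these 8 matches 6 began after the start (75.0%), against 14.8% of matches in detected genes. The 8 are shown with up to 10 bases on each side and the motif in capitals, because 6 of them lie just after the start.
Pes1 (chr11:3963967-3963992, plus strand): ctaggcagggCACGTGcgggaggaag
Utp4 (chr8:106893645-106893670, plus strand): cgcaagcgcgCACGTGgggccggggc
Wdr43 (chr17:71616222-71616247, plus strand): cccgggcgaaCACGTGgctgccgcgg
Tsr1 (chr11:74898094-74898119, plus strand): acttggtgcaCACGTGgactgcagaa
Utp20 (chr10:88826765-88826787, minus strand): gcactaactaCACGTGaggaaaa
Mybbp1a (chr11:72441357-72441376, plus strand): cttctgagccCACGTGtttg
Utp18 (chr11:93885771-93885796, minus strand): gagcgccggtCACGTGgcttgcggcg
Nop2 (chr6:125131813-125131838, plus strand): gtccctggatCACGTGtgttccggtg
The first base of the motif lay at 3 in Pes1, 16 in Utp4, 18 in Wdr43, 25 in Tsr1, 38 in Utp20 and 41 in Mybbp1a, counted from 1 at the start, and at -20 in Utp18 and -60 in Nop2. Of the 8 genes 4 act in the small subunit processome (Utp4, Utp18, Utp20 and Wdr43), a role held by 9 of the 40 genes. How many of those 9 have a window was not counted. Levels of the 8 genes ran from 8.08 TPM for Utp20 to 223 TPM for Mybbp1a.

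The ETS-type letters CCGGAAGT, searched on both strands, were found in 9 of 31 genes (29.0%), against 756 of 6875 detected genes and 5.29% of all genes. The 9 genes are Gar1, Ebna1bp2, Utp3, Utp4, Nip7, Nhp2, Tsr1, Heatr1 and Wdr74, with 11 matches because Utp3 and Utp4 hold 2 each. None of the 11 began after the RefSeq start, against 25.3% of matches in detected genes. Against the outermost gene starts of GENCODE, the matches in Tsr1, Nhp2 and Heatr1 did begin after the start. The share in detected genes was not computed for those starts, so the contrast holds for RefSeq starts only. The 3 that began closest to the start are shown, with the motif in capitals.
Tsr1 (chr11:74898069-74898096, plus strand): tcgggtccgcCCGGAAGTagagttcact
Ebna1bp2 (chr4:118620786-118620813, plus strand): aacgagaaaaCCGGAAGTgcggctatga
Heatr1 (chr13:12395349-12395376, plus strand): tagtgagaagCCGGAAGTtcctatgagg
These began at -1, -3 and -16. In all, 15 of the 31 genes held either motif, and Utp4 and Tsr1 held both. The SP-type letters GGGCGG were in 67.7% of the 31 genes and 69.2% of detected genes, CCAAT in 32.3% and 40.1%, and TATAAA in 6.45% and 5.77%. The GATA letters AGATAA were in none of the 31, against 5.75% of detected genes. AAGATGGC and TGACGTCA were likewise in none of the 31 windows, against 6.05% and 3.75% of detected genes, and GCATGCGC was in 1 (3.23%), against 6.59%. With 31 windows and shares this small in detected genes, none or 1 is not read as a lack of these letters. All these matches describe letters in a window and were not tested as binding sites.

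All 40 genes reached 1 TPM in both libraries, as did 40.0% of 21474 protein-coding genes. A level of 10 TPM in both libraries was reached by 36 of the 40, against 24.3% of protein-coding genes, and a level of 100 TPM by 14, against 5.56%. Their median was 53.4 TPM in replicate 1 and 69.7 TPM in replicate 2, while the 8581 detected protein-coding genes, those at 1 TPM or more in both libraries, had medians of 17.0 and 19.0 TPM. Among detected genes, 32 of the 40 stood above the median in both libraries and 10 above percentile 90. The 40 genes took 0.646% ± 0.0419 of all TPM (SD, n = 2), and Ncl alone held 33.8% of that in both libraries. Levels spanned from 1.59 and 2.27 TPM for Nip7 to 2085 and 2282 TPM for Ncl.

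**Figure D1:**
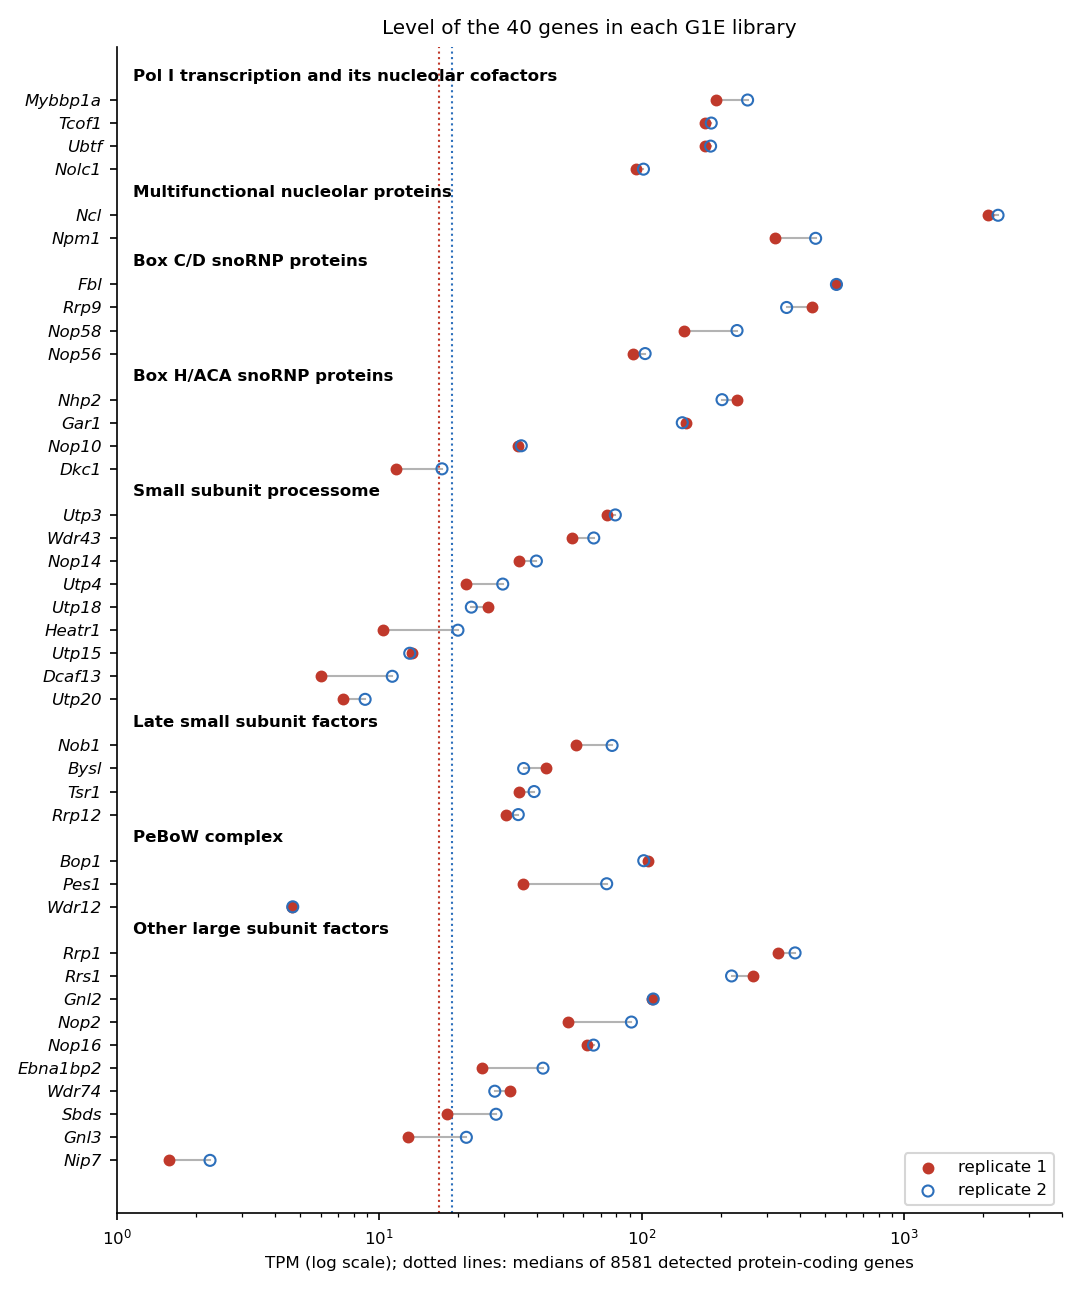
TPM of each of the 40 genes (log scale) by role, with replicate 1 as filled red points, replicate 2 as open blue points and dotted lines at the medians of 8581 detected protein-coding genes. Ncl lies furthest to the right with 2085 and 2282 TPM, and Wdr12 and Nip7 lie furthest to the left of the dotted lines.

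The 4 genes of RNA polymerase I transcription and its nucleolar cofactors were all high. Ubtf, the architectural protein that binds ribosomal DNA, had 175 TPM in replicate 1 and 183 TPM in replicate 2. Tcof1 encodes treacle, which joins ribosomal DNA transcription to early processing, and had 175 and 184 TPM. Mybbp1a, a nucleolar Myb-binding protein, had 192 and 254 TPM, and Nolc1, a chaperone of snoRNPs, had 95.0 and 102 TPM. In gene TPM Nolc1 was below the other 3 in both libraries, while Ubtf and Tcof1 overlapped. On full-length coding transcripts Ubtf, at 100.3 and 119 TPM, was below Tcof1, at 171 and 179 TPM. Counts divided by the length of all annotated exons and scaled to a fixed total put Nolc1, at 188 and 205, above Ubtf, at 134 and 153. These exon lengths are from a later annotation (GENCODE M21) than that of the counts (M4).

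The multifunctional proteins had the highest median of the 8 roles in gene TPM. Ncl, whose product nucleolin binds the precursor and ribosomal DNA, averaged 2183 ± 140 TPM (SD, n = 2). Npm1, whose product nucleophosmin is a chaperone of large subunit and histone assembly, had 321 and 461 TPM. Most of the Ncl level came from a short annotated transcript without a coding sequence, described further on. The expected counts of Npm1 were not whole (15684.21 in replicate 1 and 27696.86 in replicate 2), so some of its reads were divided with other entries and its level is less certain.

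Among the box C/D proteins, Fbl, the methyltransferase of these particles, had 549 and 553 TPM and the smallest relative spread of the 4. Rrp9, a protein specific to the U3 particle, had 446 and 357 TPM. Nop58 had 145 and 231 TPM and Nop56 had 92.7 and 103 TPM. These last proteins form a pair that scaffolds each particle. Fbl was 5.93-fold and 5.36-fold above Nop56 in replicates 1 and 2, and Nop58 was 1.57-fold and 2.24-fold above Nop56. The last direction held for gene TPM but turned to Nop58 below Nop56, at 0.165-fold and 0.230-fold, on full-length coding transcripts, and also turned with counts divided by the length of all annotated exons or of the leading coding transcript.

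The box H/ACA proteins were uneven. Nhp2 had 231 and 203 TPM and Gar1 had 147 and 143 TPM. Nop10, a short protein with a coding length of 192 bases, had 33.8 and 34.8 TPM. Dkc1 encodes dyskerin, the pseudouridine synthase of the particle, and was lowest with 11.6 and 17.4 TPM. The order Nhp2, Gar1, Nop10, Dkc1 was the same in both libraries and no ranges overlapped. Nhp2 was 19.9-fold and 11.7-fold above Dkc1, and Gar1 was 12.7-fold and 8.23-fold above it.

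The 9 processome genes had a lower median than either set of snoRNP genes, at 21.4 TPM in replicate 1 and 22.5 TPM in replicate 2. Utp3 was highest with 73.8 and 79.5 TPM. Wdr43, a subunit of the UTP-A complex, followed with 54.2 and 65.8 TPM. Of its partners in the same complex, Utp4 had 21.4 and 29.6 TPM, Utp15 had 13.3 and 13.1 TPM and Heatr1 had 10.4 and 19.98 TPM. Thus Wdr43 was above its 3 partners in both libraries, while Heatr1 and Utp15 overlapped. Utp18, of the UTP-B complex, had 26.0 and 22.5 TPM, and Nop14 had 34.0 and 39.8 TPM. Dcaf13 and Utp20, a very large scaffold protein with a coding length of 8367 bases, were lowest, at 6.03 and 11.2 TPM for Dcaf13 and 7.31 and 8.85 TPM for Utp20.

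The late small subunit factors were closer to one another. Nob1, the nuclease that makes the final cut of the small subunit RNA, had 56.3 and 77.3 TPM. Bysl had 43.3 and 35.6 TPM, Tsr1 had 34.1 and 39.0 TPM and Rrp12, a factor of nuclear export, had 30.6 and 33.9 TPM. In gene TPM Nob1 was above the others in both libraries, and Bysl and Tsr1 changed places between them. Neither held on full-length coding transcripts, where Nob1 had 39.1 and 69.5 TPM, Bysl 43.3 and 35.6 TPM and Tsr1 6.11 and 8.35 TPM, so that Bysl led in replicate 1 and was above Tsr1 in both libraries.

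PeBoW is a complex of Pes1, Bop1 and Wdr12 that is needed for large subunit RNA processing. Bop1 had 106 and 102 TPM, Pes1 had 35.3 and 73.7 TPM and Wdr12 had 4.66 and 4.69 TPM. Bop1 was thus 22.7-fold and 21.7-fold above Wdr12, a ratio that hardly moved between libraries, but 2.99-fold and 1.38-fold above Pes1. Wdr12 stood below percentile 25 of detected genes in both libraries, as did Nip7, and no others of the 40 did.

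The other 10 large subunit genes covered the widest range of the 8 roles as a fold, though not in TPM. Rrp1 had 331 and 385 TPM and Rrs1, which helps to recruit the 5S particle, had 266 and 220 TPM. Gnl2, a nucleolar GTPase, had 110 and 111 TPM. Nop2, a methyltransferase of large subunit RNA, had 52.6 and 91.5 TPM, and Nop16 had 62.2 and 65.6 TPM. Ebna1bp2 had 24.7 and 42.1 TPM and Wdr74 had 31.6 and 27.6 TPM. Sbds, which acts in the release of the anti-association factor Eif6 and is mutated in a human marrow failure syndrome, had 18.2 and 27.9 TPM. Gnl3, which encodes nucleostemin, had 12.9 and 21.5 TPM, and Nip7 was lowest of the 40 in TPM.

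A level per gene sums all annotated transcripts, and in several of these genes much of it lay on short transcripts that are not annotated as coding for the protein. Of the 40 genes 18 had a single annotated transcript and 22 had more. In 12 genes, 10% or more of the TPM lay in both libraries on transcripts annotated as retained intron, nonsense-mediated decay or processed transcript, all called non-coding here. This share of 12 in 40 is near the 31.3% found for detected protein-coding genes. Among genes with more than 1 transcript it is 54.5% of these genes, against 41.6%. In 5 of the 40 genes the share was 50% or more, against 16.6% of detected genes. Over all genes, with 1 transcript or more, a high share was therefore no more frequent among the 40 than among detected genes. Of the 5 genes, Ncl and Rrp9 ranked 1 and 3 of the 40 in gene TPM, while Gnl2, Tsr1 and Dkc1 ranked 13, 25 and 35. Gene TPM includes these transcripts, so the share and the level are not independent.

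**Figure D2:**
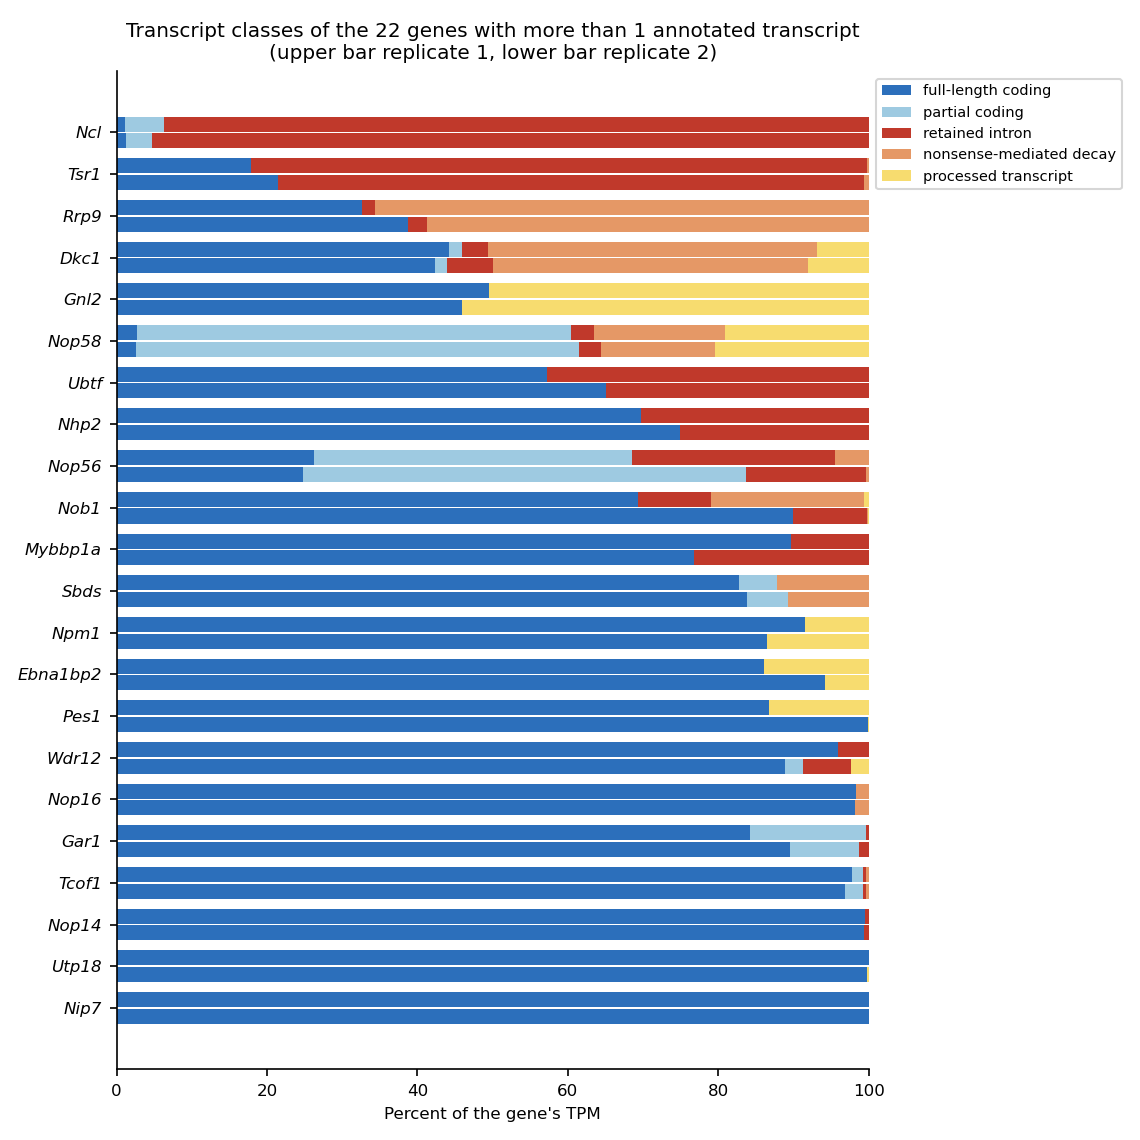
Percent of each gene's TPM on each class of annotated transcript, for the 22 genes with more than 1 transcript, with replicate 1 as the upper and replicate 2 as the lower bar. Ncl and Tsr1 are mostly retained intron (red), Rrp9 mostly nonsense-mediated decay (orange), Gnl2 about evenly processed transcript (yellow) and full-length coding (dark blue), and Nop58 mostly partial coding (light blue).

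In Ncl (chr1:86344719-86359400, minus strand, mm10) 94.5% ± 1.10 of the TPM was non-coding (SD, n = 2). A retained-intron transcript of 601 bases, Ncl-205, held 88.0% of the TPM in replicate 1 and 86.2% in replicate 2, but 58.3% and 50.7% of the gene's expected counts. TPM divides counts by length, so a short transcript weighs more in TPM than in counts. The only full-length coding transcript, Ncl-201, is annotated with 8202 bases, of which 2121 are coding, and it had 24.2 and 27.8 TPM. On full-length coding transcripts alone Ncl thus ranked 26 of the 40, but it ranked 5 when all its counts were divided by the length of Ncl-201, so its place among the 40 depends on the measure.

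Tsr1 (chr11:74898071-74909342, plus strand) had 82.1% and 78.6% of its TPM on non-coding transcripts, nearly all on the retained-intron transcript Tsr1-207 of 1369 bases. By counts, Tsr1-207 held 62.7% and 57.4% of the gene. The full-length transcript of Tsr1 had 6.11 and 8.35 TPM. In Rrp9 (chr9:106475963-106485424, plus strand) the share was 67.3% and 61.2%, and the transcript of 482 bases annotated for nonsense-mediated decay, Rrp9-207, held 31.1% and 24.98% of the counts but 65.7% and 58.8% of the TPM. The full-length transcript of Rrp9 still had 146 and 138 TPM. Both genes therefore kept their order at the level of full-length transcripts, with Rrp9 well above Tsr1.

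Dkc1 had 54.1% and 56.1% of its TPM on non-coding transcripts, mainly Dkc1-210 of 657 bases, which held 43.3% and 40.6% of the TPM but 15.3% and 14.6% of the counts. Gnl2 had 50.5% and 54.0%, mainly on the processed transcript Gnl2-204 of 765 bases, which held 21.9% and 24.0% of the counts. The next shares were 39.6% and 38.6% for Nop58, 42.7% and 35.0% for Ubtf, and 30.2% and 25.1% for Nhp2. In Nop58 another part lay on coding transcripts annotated as incomplete, so that full-length coding transcripts held 4.01 and 5.89 TPM of its 145 and 231 TPM. The leading one, Nop58-215, is annotated with 9507 bases, of which 1608 are coding. It held 38.2% of the expected counts of Nop58 in both libraries, so its small share of TPM goes with its length. Counted by expected counts in place of TPM, 9 genes had a non-coding share of 10% or more.

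The leading non-coding transcript of each of the 12 genes was shorter than its leading full-length coding transcript, with lengths from 480 to 1369 bases and a median of 790. Its centre lay in the first part of the coding transcript, before the midpoint, in 8 genes and in the second part in 4. In Mybbp1a this transcript was Mybbp1a-203, at 0 TPM in replicate 1 and 34.3 TPM in replicate 2. In Nob1 it was Nob1-207, at 11.3 and 0 TPM, so in these genes it was not present in both libraries. Among transcripts of all classes, only 1 gene changed its leading transcript between libraries. Tcof1-204 held 74.9% of the TPM of Tcof1 in replicate 1 and 39.8% in replicate 2, while Tcof1-202 held 23.0% and 57.1%. Both are full-length coding transcripts.

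On full-length coding transcripts alone, all 40 genes still reached 1 TPM in both libraries, 33 reached 10 TPM and 11 reached 100 TPM. Fbl, with a single annotated transcript, then led with 549 and 553 TPM. The median of the 40 genes was 33.8 TPM in replicate 1 and 39.6 TPM in replicate 2, against 9.51 and 11.2 TPM for detected protein-coding genes. Full-length coding transcripts held 53.1% of the TPM of the 40 genes and 69.0% of that of detected protein-coding genes. Ncl decided this difference, since without it the share was 79.6% ± 0.541 (SD, n = 2) for the other 39 genes, above that of detected genes. The gene level and the full-length level ranked the 40 genes with a Spearman rho of 0.80, which describes genes of the same libraries and shares their counts.

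**Figure D3:**
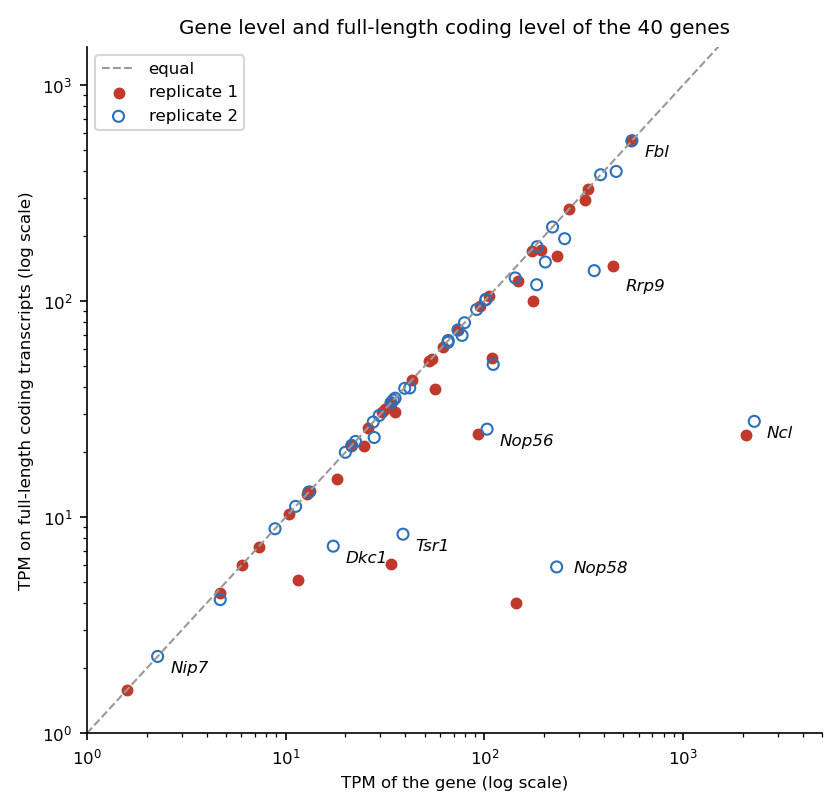
TPM of the gene (x axis) and TPM on its full-length coding transcripts (y axis), both on log scales, for the 40 genes in replicate 1 (filled) and replicate 2 (open), with a dashed line where both are equal. Most genes lie on or just below the line, and Ncl, Nop58, Tsr1 and Nop56 lie furthest below it.

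Ratios within particles changed with this choice. The direction between Nop58 and Nop56 turned, as given above, so their order cannot be told from these tables. Fbl stayed above both, at 22.6-fold and 21.6-fold of Nop56. Nhp2 stayed above Dkc1, at 31.4-fold and 20.7-fold, and Bop1 stayed above Wdr12, at 23.6-fold and 24.5-fold.

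The 2 libraries gave nearly the same order of the 40 genes, with a Spearman rho of 0.98 across genes. After scaling by TMM (trimmed mean of M-values) the median log2 ratio, replicate 1 over replicate 2, was -0.03, with 19 genes above 0 and 21 below. None of the 40 was 2-fold or more higher in replicate 1, against 2.32% of the 11636 tested genes. Pes1 alone was 2-fold or more lower in replicate 1, against 4.80% of tested genes, with 4928 expected counts in replicate 1, 14390 in replicate 2 and a log2 ratio of -1.05. At 1.5-fold none was higher in replicate 1, against 6.51%, and 5 were lower, against 12.4%. These 5 were Pes1, Heatr1 (-0.79), Dcaf13 (-0.73), Ebna1bp2 (-0.71) and Nop2 (-0.64). Counts of 1 and 5 in 40 are near the background of all tested genes or below it.

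**Figure D4:**
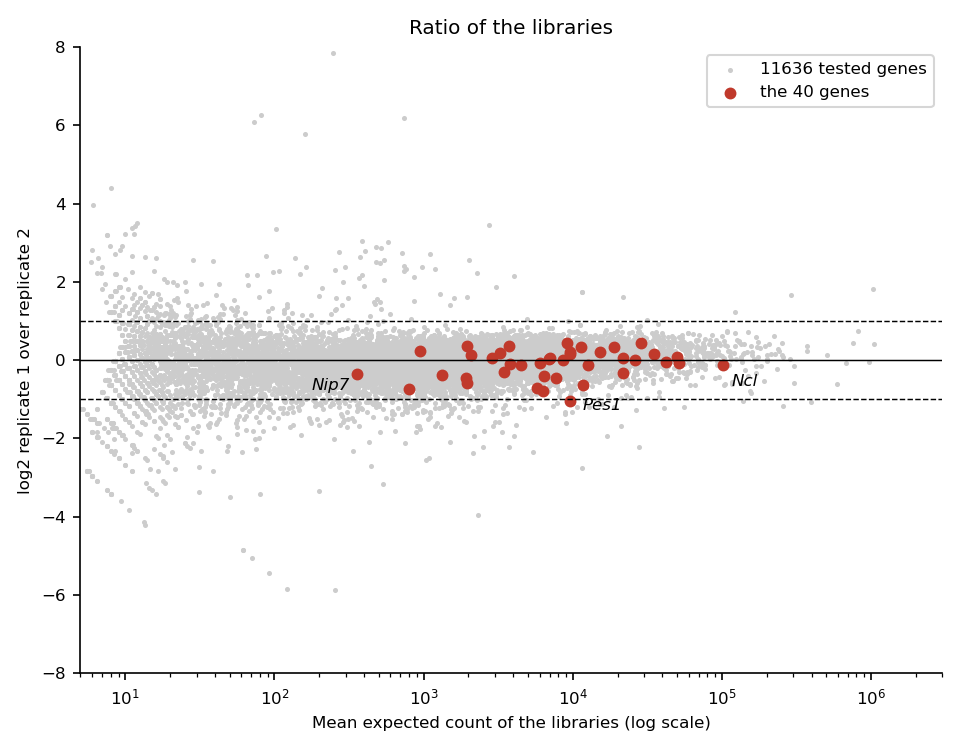
Log2 ratio of replicate 1 over replicate 2 against the mean expected count (log scale), for 11636 tested genes in grey and the 40 genes in red, with dashed lines at 2-fold. Pes1 lies just past the lower dashed line, and the other 39 genes lie between the lines.

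The ratio moved with base composition. The GC content of the leading coding transcript ran from 41.0% (Nop58) to 59.8% (Rrp9), with a median of 49.3% against 51.2% in detected genes. The 20 genes below the median GC had a median log2 ratio of -0.22 and the 20 others 0.06. Spearman's rho between GC and the ratio was 0.43 across the 40 genes and 0.26 across detected genes. GC also went with level, at a rho of 0.45 across the 40 genes and 0.35 across detected genes. The medians were 23.0 and 28.8 TPM for the genes low in GC and 100.3 and 103 TPM for those high in GC. These are descriptions across genes that share both libraries, and the part of GC in the levels was not tested. The leading coding transcripts had a median length of 2618 bases, against 2612 in detected genes, and a median coding length of 1596 bases, against 1284.

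Genes that act beside the 40 had lower medians, and ribosomal proteins had higher ones. These lists, like the 40 genes, were chosen with earlier results of these data known. The 18 genes of RNA polymerase I and its initiation factors had medians of 15.0 and 19.3 TPM. Polr2f (311 and 439 TPM), Polr2e (146 and 208 TPM) and Polr1d (116 and 139 TPM), all shared with other polymerases, were highest, and Taf1b (1.64 and 2.08 TPM), Polr2k (1.04 and 2.52 TPM) and Taf1a (1.18 and 1.42 TPM) were lowest. Of 44 other small subunit assembly genes the medians were 17.5 and 19.5 TPM, from Noc4l (201 and 220 TPM), Emg1 (179 and 178 TPM) and Bud23 (130 and 174 TPM) down to Esf1 (2.56 and 3.68 TPM), Krr1 (1.96 and 2.80 TPM) and Nol11 (1.18 and 1.78 TPM).

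The 46 other large subunit assembly genes had medians of 22.1 and 29.1 TPM. Nop53 (508 and 467 TPM), Ppan (443 and 430 TPM) and Eif6 (365 and 251 TPM) were highest, and Nvl (3.02 and 3.36 TPM), Urb2 (2.14 and 3.88 TPM) and Noc3l (1.23 and 2.40 TPM) were lowest. The 13 genes of the RNA exosome, the nuclease that trims precursor RNA, had medians of 18.4 and 25.9 TPM, from Exosc5 (455 and 364 TPM), Exosc3 (146 and 126 TPM) and Exosc10 (48.0 and 56.4 TPM) to Mtrex (2.94 and 3.67 TPM), Exosc9 (2.17 and 3.77 TPM) and C1d (1.64 and 2.72 TPM). The 79 cytosolic ribosomal proteins had medians of 552 and 967 TPM and took 22.6% ± 0.978 of all TPM. They ran from Rplp1 (51796 and 44226 TPM), Rpl18 (18007 and 14007 TPM) and Rps15 (11023 and 11694 TPM) to Rpl37 (29.9 and 31.9 TPM), Rps15a (10.3 and 13.7 TPM) and Rpl29 (5.51 and 5.68 TPM). Many ribosomal protein genes have near-identical copies, so single values among them are uncertain.

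**Figure D5:**
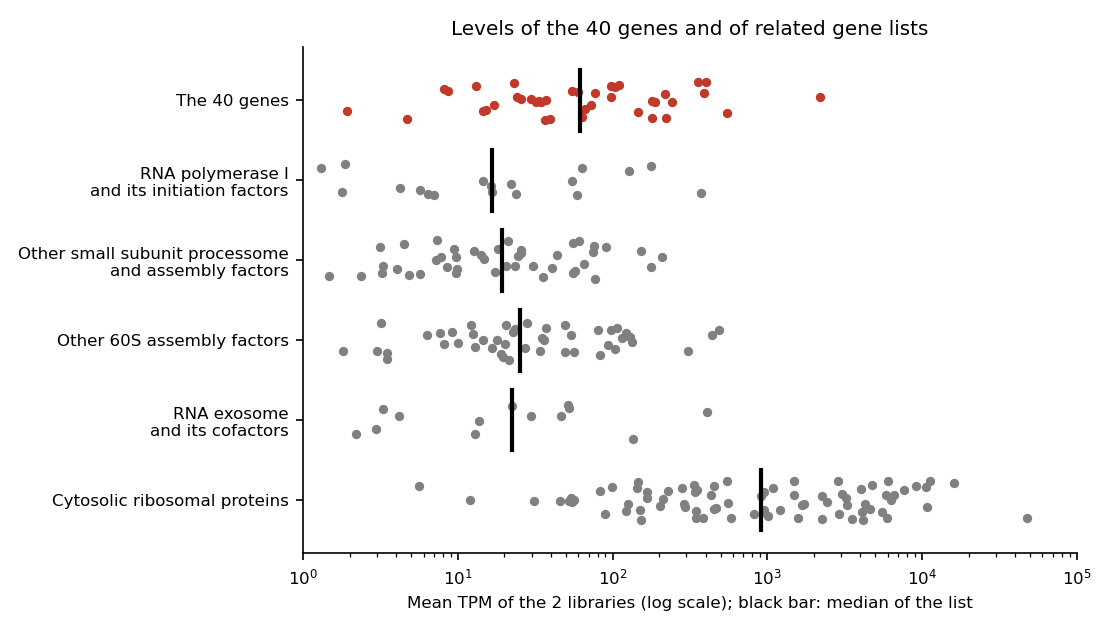
Mean TPM of the 2 libraries (log scale) for the 40 genes in red and for the genes of 5 related lists in grey, 1 point a gene, with a black bar at each list's median. The bars of the 4 lists of assembly, polymerase and exosome genes lie to the left of that of the 40 genes. That of the ribosomal proteins lies to its right.

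Genes of the related lists that were 2-fold apart between the libraries are read against the 2.32% of all tested genes that were higher in replicate 1 and the 4.80% that were lower in it. Counted as higher in replicate 1, then as lower in it, these were 0 and 1 of the 18 polymerase genes, 0 and 1 of the 44 small subunit genes, 0 and 2 of the 46 large subunit genes, 0 and 0 of the 13 exosome genes, and 1 and 8 of the 79 ribosomal proteins. The 8 are 10.1% of the ribosomal proteins, above the 4.80% of all tested genes. Paralogues of the 40 genes split in 2 sets. Npm3, a relative of Npm1, had 167 and 166 TPM and Gnl1, a relative of Gnl2 and Gnl3, had 117 and 122 TPM. Gnl3l had 1.87 and 2.46 TPM. Npm2, known from the oocyte, had 0.0200 and 0 TPM, and Fbll1, a relative of Fbl, had 0 counts in both libraries, where a count of 0 allows up to 3 counts, or 0.0484 and 0.0372 CPM (the same counts scaled to each library's total).

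Of the 40 genes 7 (Ncl, Nop56, Nop58, Dkc1, Wdr43, Tsr1 and Gnl3) hold 21 snoRNA genes of 68 to 133 bases in their bodies. All 21 had 0 counts in both libraries, but 18 of them had an effective length of 0, which means that a fragment of the library's size could not come from them. Their zeros are therefore no measure of the snoRNAs. The 7 host genes ran from Dkc1, with 11.6 and 17.4 TPM, to Ncl.

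Several of the 40 genes share exon bases with a gene on the opposite strand, and the use of strand in the counting is not given in the sources used here. Tsr1 shares 1240 bases (32.3% of its exon bases) with Srr, which had 231 and 323 expected counts, against 3007 and 4557 for Tsr1. Bysl shares 361 bases (9.37%) with Ccnd3, which had 41401 and 49835 counts, against 8977 and 9321 for Bysl. Without strand, reads of the shared bases could not be told apart, which would leave the levels of Bysl and Tsr1 uncertain by that part. The expected counts of Bysl, Ccnd3, Tsr1 and Srr were whole in both libraries, so no division of reads within these pairs shows in them. The use of strand was not tested. Nop14 shares 144 bases with the antisense gene Gm15522, which had 0 counts. Smaller overlaps were found for Mybbp1a with Spns2 (131 bases), Wdr12 with Carf (61), Bop1 with Mroh1 (50), Dkc1 with Mpp1 (45), Nhp2 with Rmnd5b (44), Rrp9 with Parp3 (20), Gnl3 with Pbrm1 (15) and Nop56 with Idh3b (5). Lgals8 and Scx lie across Heatr1 and Bop1 with no shared exon base. Expected counts of 36 of the 40 genes were whole in both libraries to within 0.005. Those of Npm1 and Fbl were not, nor were those of Nop56 and Pes1 in replicate 2.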

How the data were processed

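Poly(A) RNA of 2 G1E libraries was sequenced by the authors on paired ends. Per the submitters' processing notes the tables are on mm10 with GENCODE M4; the aligner and counting tool were not given in the sources used here. The deposited expected counts are estimated read pairs per gene or transcript, and the deposited TPM and FPKM values are scaled by effective length, per the file headers. The deposited transcript tables also give each transcript's percent of its gene's TPM. Genes were matched by identifier to GENCODE M21 (42462 of 43346). M21 gave symbols, positions, transcript types, coding lengths, GC content and the length of all annotated exons. Full-length coding means protein-coding with no tag for an incomplete end. Levels are TPM with the SD over libraries. Ratios used rounded expected counts, TMM factors from edgeR 4.0.16 (R 4.3.3), a minimum of 10 counts in either library and 3 counts in place of 0; DESeq2 1.42.0 gave alternative size factors. The ratio step was tested on simulated data. No per-gene test was run. The limit for a count of 0 covers counting error only. Python 3.11.15, pandas 2.3.3, NumPy 2.4.6 and SciPy 1.17.1 were used, and figures were drawn with matplotlib 3.10.9. The 40 genes and the related lists were chosen with earlier results of these data known. Every one of the 40 is named; from each related list the 3 highest and 3 lowest by mean TPM and all paralogues are named, with genes that lie in or across a named gene at 10 or more counts (Gm15522, at 0 counts, was added after its values were seen), the 8 largest non-coding shares and any change of leading transcript. Riok2 and Exosc6 were not analysed here.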

Additional observations from a re-analysis of the deposited data

How the results depend on the processing

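Of 73 alternative values for 12 results, 48 stayed within the SD of the libraries, within 1.5 times a count or, for the median log2 ratio, within 0.1. Part of these 48 could not have moved. With 2 libraries, either one alone always lies within their SD of the mean, for levels, shares and log2 ratios within complexes. The settings on a minimum of TPM or counts kept all 40 genes. The median of the 40 genes, 61.6 TPM as the mean of both libraries, was 36.7 TPM on full-length coding transcripts and 74.9 TPM from counts per length of the leading coding transcript. Their share of all TPM, 0.646%, was 0.343% on full-length coding transcripts and 0.428% without Ncl. The share of their TPM on full-length coding transcripts, 53.1%, was 79.6% without Ncl. A limit of 1.5-fold in place of 2-fold gave 5 genes in place of 1. The median log2 ratio of the libraries, -0.03, was -0.15 with library totals and -0.15 from TPM with a pseudocount of 1 or of 0.1, while library totals put the median of all tested genes at -0.13. The log2 ratio of Nop58 over Nop56, 0.90, turned to -1.28 from counts per annotated exon length, -2.36 on full-length coding transcripts and -2.23 from counts per length of the leading coding transcript. For Fbl over Nop56, 2.49, those settings gave 2.33, 4.47 and 3.06, and all protein-coding transcripts gave 2.90. For Nhp2 over Dkc1, 3.93, they gave 4.997, 4.67, 4.58 and 4.62. For Bop1 over Wdr12, 4.47, they gave 6.02, 4.59, 4.40 and 4.57, and posterior mean TPM gave 4.38. The annotated exon lengths are from M21 and the counts are on M4, so that setting mixes annotations. For Fbl it divides by 4209 bases, against 1159 for the only transcript counted. The cause of these moves was not tested. Without replicate 1 or without replicate 2 the log2 ratio of Bop1 over Pes1 was 0.47 or 1.58, the number of genes at 100 TPM or more 16 or 14, and the number with a non-coding share of 10% or more 13 or 14. Settings on full-length coding and leading coding transcripts, on Ncl and on shares of counts were chosen after seeing the data. No paired analysis was possible because there is 1 group. With 2 libraries, precision is limited by their number and not by depth, since the lowest expected count of any of the 40 genes was 257.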
